A study of Homo sapiens with 12 samples.

Results

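The proteasome subunit and regulator genes were followed in OCI-AML2, a human acute myeloid leukaemia line, as 48 of 55765 rows of a table of gene counts. They were taken by symbol alone, as PSMA to PSMG followed by a number, and 46 of them passed a filter on low counts that left 11474 genes. The cells were single-cell clones in which doxycycline drives a MEF2C construct, wild type (WT) in one line and S222A, a form with a replaced serine, in the other. MEF2C is a transcription factor of blood, muscle and nerve cells. Cells received 600 ng doxycycline (induced) or vehicle (uninduced) for 48 h before RNA extraction. Each line gave an uninduced and an induced group, 4 groups in all, with 3 libraries each. All groups carried a construct, the number of clones behind each line is not given in the sources used here, and cells without a construct that received doxycycline were not analysed here. Nothing in the labels says that the libraries of a group came from separate cultures, so the spread behind each p-value may be only technical.

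The proteasome is the main protease of the cytosol and nucleus and degrades proteins marked with ubiquitin. Its barrel, the 20S core, stacks outer rings of alpha subunits (PSMA genes) on inner rings of beta subunits (PSMB genes), some of which carry the protease sites, and the 19S particle on its ends recognises, unfolds and feeds in substrates with a ring of ATPases (PSMC genes) and a set of other subunits (PSMD genes). Other caps activate the core (PSME genes), PSMF1 was described as an inhibitor of it, and the PSMG genes encode chaperones that build the alpha ring. Blood cells also use an immunoproteasome, in which interferon-inducible subunits replace the standard catalytic ones.

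Library totals ran from 875710 to 13134791 counts. Levels are given as CPM, counts scaled to 1e6 per library, with TMM library factors, and 3 counts corresponded to between 0.228 and 3.43 CPM, which covers counting error only. The deepest library of each group (replicate 2 of WT uninduced, 1 of WT induced, 1 of S222A uninduced and 3 of S222A induced cells) differed from the other 8, and S222A uninduced 3 stood apart in MYC, at 53.7 CPM, with 211 to 231 CPM in the remaining pair of its group and 81.0 to 96.4 CPM in S222A induced cells. MEF2C itself stood at 645 to 817 CPM in WT uninduced, 674 to 844 in WT induced, 605 to 802 in S222A uninduced and 786 to 956 in S222A induced cells and was called in neither induction, so the groups are named by their treatment. Of 12 myeloid markers 9 were tested, with a summed level of 761 to 1011 CPM over the 12 libraries, and 2 had no count. PTPRC alone stood at 516 to 760 CPM, and the highest value of any other tested marker was 111 CPM (FLT3). Erythroid markers summed to at most 0.223 CPM with 4 of 5 genes at 0, B cell markers to 1.14 to 11.1 CPM, T cell markers to 8.87 to 25.05 CPM and epithelial or fibroblast markers to 3.09 to 9.83 CPM. Of the T cell markers 1 was tested, CD4, at 8.42 to 25.5 CPM. In bulk RNA, fewer cells of a type and less RNA per cell cannot be told apart.

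Proteasome transcripts took a smaller share of the RNA in S222A cells given doxycycline than in any other library. The 48 genes held 0.717, 0.790 and 0.719% of counts in WT uninduced, 0.735, 0.671 and 0.691% in WT induced, 0.762, 0.701 and 0.735% in S222A uninduced, and 0.563, 0.575 and 0.629% in S222A induced cells. All 3 S222A induced libraries thus lay below the other 9, while the other 3 groups overlapped. Group means were 0.742 ± 0.0415%, 0.699 ± 0.0331%, 0.733 ± 0.0306% and 0.589 ± 0.0350% (SD, n = 3). Mitochondrially encoded RNA, a sign of RNA or cell quality, averaged 6.62, 7.55, 6.96 and 8.17% in the same order and overlapped between all groups; its part in the result was not tested. Of 9 myeloid markers tested, 6 were below 0 on S222A induction, and only MPO, a granule enzyme of immature myeloid cells, was called. MPO fell from 7.24 ± 2.13 to 2.12 ± 1.34 CPM (SD, n = 3), with log2 -1.71 ± 0.42 SE and adjusted p = 0.0377 (edgeR). This call was lost without any 1 of the 6 libraries (adjusted p 0.0556 to 0.208). PTPRC, FLT3 and KIT stood above 0 (log2 0.28, 0.49 and 2.22) and were not called. In S222A induced 1 MPO stood at 0.693 CPM, below the level of 3 counts there (1.05 CPM). MPO was also lower on WT induction (log2 -0.96 ± 0.37 SE), without a call. Before induction it already stood at 4.92 to 9.13 CPM in S222A and 15.5 to 19.3 CPM in WT cells (log2 -1.25, not called). Between the induced lines MPO was called lower in S222A (log2 -2.01, adjusted p = 0.0124, edgeR). That call was lost without WT induced 3 (0.0576) or S222A induced 3 (0.0525). The part of these markers was not tested either. The deepest library had the highest share in each group. Among the remaining libraries the share also followed depth, except in S222A uninduced cells. There replicate 3 (930960 counts) held 0.735% and the deeper replicate 2 (2365154 counts) 0.701%.

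**Figure D1:**
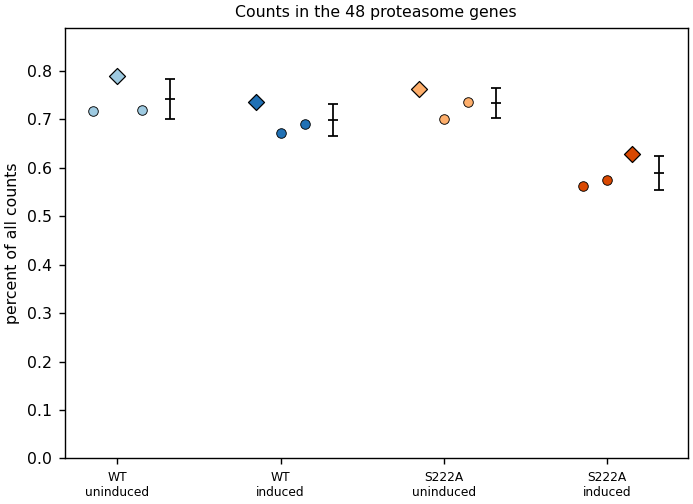
Share of all counts that fell in the 48 proteasome genes, in percent (vertical axis), for each library of the 4 groups; diamonds are the deepest library of each group and bars the mean with SD of 3 libraries. The S222A induced libraries lie between 0.563 and 0.629%, below the other 9.

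In the S222A line most members stood a little lower with doxycycline, and none of the differences was called. Of the 46 tested, 38 had a log2 fold change below 0 (82.6%, against 49.2% of all genes), and the median was -0.28, a 1.21-fold lower level, where that of all genes was 0.01. None was called at an adjusted p under 0.05 by edgeR's quasi-likelihood test, a call that 4.45% of all genes received. At an unadjusted p under 0.05, 11 members were lower (23.9%, against 9.26% of all genes) and 0 higher (against 9.85%). In 13 members the 3 induced libraries lay below the 3 uninduced (28.3%, against 13% of all genes), and in 0 above (14.4%). DESeq2 called 3 members lower (PSMA7, PSMD2 and PSMG1; 6.52%, against 3.16% of all genes) and limma-voom 2 (PSMA7 and PSMG1; 4.35%, against 2.34%). A term for the deepest libraries in the edgeR model raised the count to 14 (30.4%), all lower, as it raised the share of all genes called lower from 1.66 to 9.12%.

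**Figure D2:**
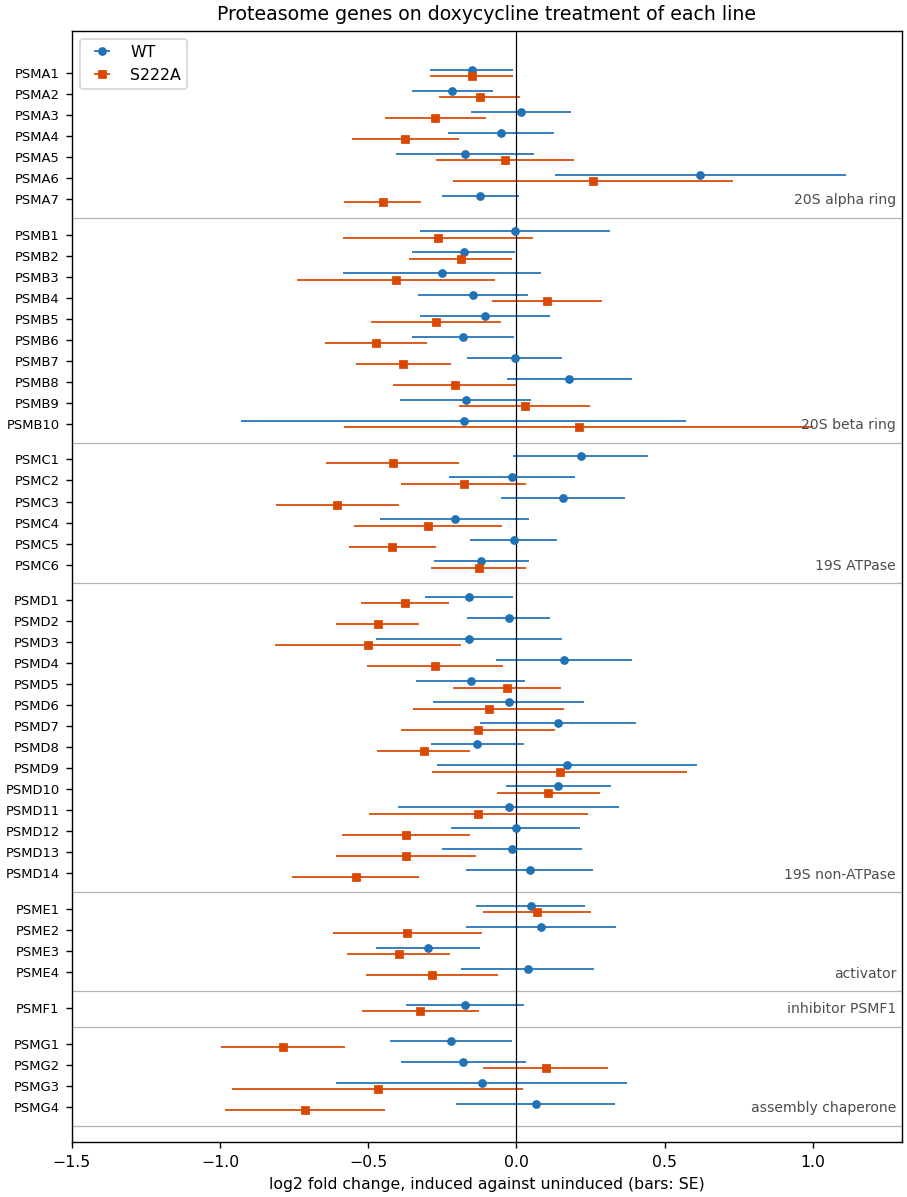
Log2 fold change of each tested proteasome gene, induced against uninduced (horizontal axis), in the WT (circles) and S222A (squares) line, grouped by role; bars are SE. On S222A induction 38 of 46 genes lie left of 0, and none passed the adjusted test in either line.

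Every class had more members below 0 than above, and they differed in size. The assembly chaperones had a median log2 fold change of -0.59 on S222A induction (3 of 4 below 0) and the 19S ATPases one of -0.36 (6 of 6). The activators stood at -0.33 (3 of 4), PSMF1 at -0.32, the other 19S genes at -0.29 (12 of 14), the beta ring at -0.24 (7 of 10) and the alpha ring at -0.15 (6 of 7). Differences between classes were not tested. Summed over a class, the 19S ATPases stood at 428 to 468 CPM in S222A induced cells and the alpha ring at 1216 to 1397 CPM, below all 9 other libraries (lowest 497 and 1537 CPM). Summed levels of the beta ring, the activators and the assembly chaperones overlapped with S222A uninduced cells. Above 0 stood PSMA6, PSMB4, PSMB9, PSMB10, PSMD9, PSMD10, PSME1 and PSMG2, the highest of them PSMA6 at 0.26.

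PSMG1, which pairs with PSMG2 to start the alpha ring, had the smallest p of the members on S222A induction and between the induced lines. It stood at 75.2, 101 and 88.2 CPM in WT uninduced, 85.8, 54.9 and 83.2 in WT induced, 81.1, 76.3 and 51.5 in S222A uninduced and 40.9, 38.6 and 43.6 in S222A induced cells. The 3 S222A induced libraries were below all 9 others, and the other groups overlapped. Between the induced lines PSMG1 was 1.85-fold lower in S222A (log2 -0.89 ± 0.21 SE, adjusted p = 0.0248 by edgeR's quasi-likelihood test), and it was the 1 member called there (2.17%, where 6.34% of all genes were called). On S222A induction it was 1.73-fold lower with an adjusted p of 0.0504 (log2 -0.79 ± 0.21 SE), just short of the call, and on WT induction its log2 fold change was -0.22 ± 0.21 SE. The difference between those induction effects was -0.57 ± 0.29 SE (adjusted p = 0.801).

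The PSMG1 result depended on single libraries. On S222A induction the adjusted p was 0.0278 without S222A uninduced 3, the library that also stood apart in MYC and had the lowest PSMG1 outside the S222A induced group, and 0.117 to 0.189 without any other 1 of the 6. Between the induced lines the call held without WT induced 2 (adjusted p = 0.0167). It was lost without WT induced 1 (0.0673), WT induced 3 (0.103), S222A induced 1 (0.0970), S222A induced 2 (0.102) or S222A induced 3 (0.0639), with log2 fold changes that stayed between -1.06 and -0.79. DESeq2 gave 0.0120 on S222A induction and 0.00212 between the induced lines, and limma-voom 0.0324 and 0.0147.

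The promoter of PSMG1 holds 2 of the motifs searched, and these stretches are shown because PSMG1 is the member called; capitals mark the motif, read 5′ to 3′ on the gene's strand. RefSeq's window of 250 bases before to 50 after the start was used (GRCh38.p14, minus strand), with the CCAAT box at chr21:39183669-39183698 and TGACNNNGC, the letters shared by antioxidant response elements bound by NRF1 and its relatives, at chr21:39183615-39183644. Both stretches lie in an exon of a GENCODE transcript.
PSMG1 CCAAT box: agaccccctcccCCAATctgtaatttaaaa
PSMG1 TGACNNNGC: gcccagggcaTGACAGCGCgggcgggcggt

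The other chaperones of the alpha ring differed among themselves. PSMG2, the partner of PSMG1, stood at 105, 78.8 and 80.9 CPM in WT uninduced, 70.7, 71.7 and 89.7 in WT induced, 63.5, 86.2 and 50.4 in S222A uninduced and 71.0, 84.7 and 61.5 in S222A induced cells. These groups overlapped, and its log2 fold change on S222A induction was 0.10 ± 0.21 SE, adjusted p = 0.869. In counts, PSMG1 reached 0.580 ± 0.127 of PSMG2 in S222A induced cells against 1.06 ± 0.198 in S222A uninduced, 0.968 ± 0.226 in WT induced and 1.03 ± 0.289 in WT uninduced cells (SD, n = 3). The S222A induced ratios, 0.455 to 0.709, were below those of all 9 other libraries.

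PSMG4, which pairs with PSMG3 in the second chaperone of the ring, stood at 52.0, 69.0 and 38.8 CPM in WT uninduced, 66.2, 53.8 and 47.4 in WT induced, 60.9, 44.7 and 33.9 in S222A uninduced and 29.1, 21.6 and 36.3 in S222A induced cells. The S222A induced libraries lay below the WT induced ones but overlapped with S222A uninduced 3. PSMG4 was 1.92-fold lower between the induced lines (log2 -0.94 ± 0.27 SE, adjusted p = 0.0578, edgeR) and 1.64-fold lower on S222A induction (log2 -0.71 ± 0.27 SE, adjusted p = 0.166), neither called, and DESeq2 called it between the induced lines (adjusted p = 0.0254). PSMG3 stood at 84.3, 187 and 64.5 CPM in WT uninduced, 176, 63.9 and 65.3 in WT induced, 156, 76.3 and 117 in S222A uninduced and 61.0, 62.0 and 128 in S222A induced cells. Its highest value was the deepest library in all 4 groups, on average 2.24 times the mean of the others, and its log2 fold change on S222A induction was -0.47 ± 0.49 SE, adjusted p = 0.691.

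Among the alpha ring genes, PSMA7 had the smallest p on S222A induction. It stood at 645, 612 and 638 CPM in WT uninduced, 590.0, 555 and 595 in WT induced, 644, 569 and 681 in S222A uninduced and 442, 468 and 474 in S222A induced cells. Every S222A induced library was below the other 9, by 1.37-fold against S222A uninduced cells (log2 -0.45 ± 0.13 SE, adjusted p = 0.0688, edgeR quasi-likelihood with Benjamini-Hochberg adjustment). DESeq2 called PSMA7 on S222A induction (adjusted p = 0.00163) and between the induced lines (0.0222), and edgeR did not call it in the latter (log2 -0.33 ± 0.13 SE, adjusted p = 0.162). The WT induced libraries also lay below the WT uninduced ones, with a log2 fold change of -0.12 ± 0.13 SE and no call.

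PSMA4 had the next smallest p of the ring on S222A induction and overlapped between the groups, at 283, 292 and 309 CPM in WT uninduced, 240.0, 298 and 315 in WT induced, 266, 268 and 381 in S222A uninduced and 224, 271 and 207 in S222A induced cells. Its high value was S222A uninduced 3, and its log2 fold change of -0.38 ± 0.18 SE, adjusted p = 0.279 was not called. PSMA3, another alpha subunit, did not overlap between the lines, at 207, 232 and 262 CPM in WT induced and 176, 194 and 132 CPM in S222A induced cells (log2 -0.49 ± 0.17 SE, adjusted p = 0.114, edgeR). PSMA1, PSMA2 and PSMA5 had log2 fold changes between -0.15 and -0.04 on S222A induction. PSMA2 differed without overlap in 3 comparisons, each time with the lower values in the treated or mutant cells, by log2 -0.22 on WT induction, -0.31 between the uninduced and -0.22 between the induced lines, none called.

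In the beta ring the standard catalytic subunits PSMB6, PSMB7 and PSMB5 give the caspase-like, trypsin-like and chymotrypsin-like activities. PSMB6 stood at 117, 135 and 112 CPM in WT uninduced, 123, 90.8 and 106 in WT induced, 132, 107 and 124 in S222A uninduced and 72.7, 85.6 and 102 in S222A induced cells. Induced and uninduced S222A libraries did not overlap, and the log2 fold change of -0.48 ± 0.17 SE, adjusted p = 0.146 (edgeR) was not called. PSMB7, like PSMB6, had its lowest mean in S222A induced cells. It stood at 333, 346 and 277 CPM in WT uninduced, 370.2, 289 and 291 in WT induced, 333, 289 and 366 in S222A uninduced and 241, 241 and 274 in S222A induced cells. Its log2 fold change on S222A induction was -0.38 ± 0.16 SE (adjusted p = 0.211, edgeR), without overlap there or between the induced lines.

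The third standard subunit, PSMB5, stood at 160.0, 199 and 143 CPM in WT uninduced, 199, 105 and 157 in WT induced, 211, 159 and 229 in S222A uninduced and 169, 161 and 165 in S222A induced cells. It overlapped between all groups (log2 -0.27 ± 0.22 SE, adjusted p = 0.569 on S222A induction). PSMB1 and PSMB3, which have no catalytic site, were, apart from PSMB10 with its few counts, the members of the ring with the highest ratios of deepest to other libraries: their deepest libraries stood at 1.69 and 1.71 times the mean of the others. PSMB1 ran from 289.5 to 596 CPM and PSMB3 from 66.5 to 188 CPM, with log2 fold changes of -0.27 ± 0.32 SE and -0.41 ± 0.33 SE on S222A induction. PSMB4, also without a catalytic site, had a log2 difference of -0.43 ± 0.19 SE, adjusted p = 0.64 (edgeR) between the S222A and the WT line before induction and of 0.10 ± 0.19 SE on S222A induction.

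Of the immunoproteasome subunits, PSMB8, which replaces PSMB5, stood at 167, 207 and 159.7 CPM in WT uninduced, 234, 169 and 199 in WT induced, 205, 157 and 117 in S222A uninduced and 125, 129 and 164 in S222A induced cells. The S222A induced libraries were below the WT induced ones without overlap (1.44-fold, log2 -0.53 ± 0.21 SE, adjusted p = 0.167, edgeR) and overlapped with S222A uninduced cells. PSMB9, which replaces PSMB6, stood at 44.9, 64.5 and 53.9 CPM in WT uninduced, 56.3, 42.6 and 45.3 in WT induced, 50.2, 35.3 and 66.8 in S222A uninduced and 49.2, 48.2 and 54.3 in S222A induced cells, with overlap between all groups and a log2 fold change of 0.03 ± 0.22 SE on S222A induction. PSMB10, which replaces PSMB7, had 0 to 5.21 CPM and rested on few counts.

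Ratios of counts within a library put the inducible subunits beside the standard ones. PSMB8 to PSMB5 was 1.04, 1.04 and 1.12 in WT uninduced, 1.17, 1.61 and 1.27 in WT induced, 0.968, 0.987 and 0.512 in S222A uninduced and 0.741, 0.800 and 0.995 in S222A induced cells. All 6 S222A libraries were below all 6 WT ones, and S222A uninduced 3 was the lowest. PSMB9 to PSMB6 was 0.384, 0.477 and 0.482 in WT uninduced, 0.458, 0.469 and 0.429 in WT induced, 0.379, 0.330 and 0.540 in S222A uninduced and 0.676, 0.562 and 0.530 in S222A induced cells. The S222A induced libraries were the upper values here, with S222A uninduced 3 among them. PSMB9 to PSMB6 had its highest mean in S222A induced cells. These ratios carry no test.

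**Figure D3:**
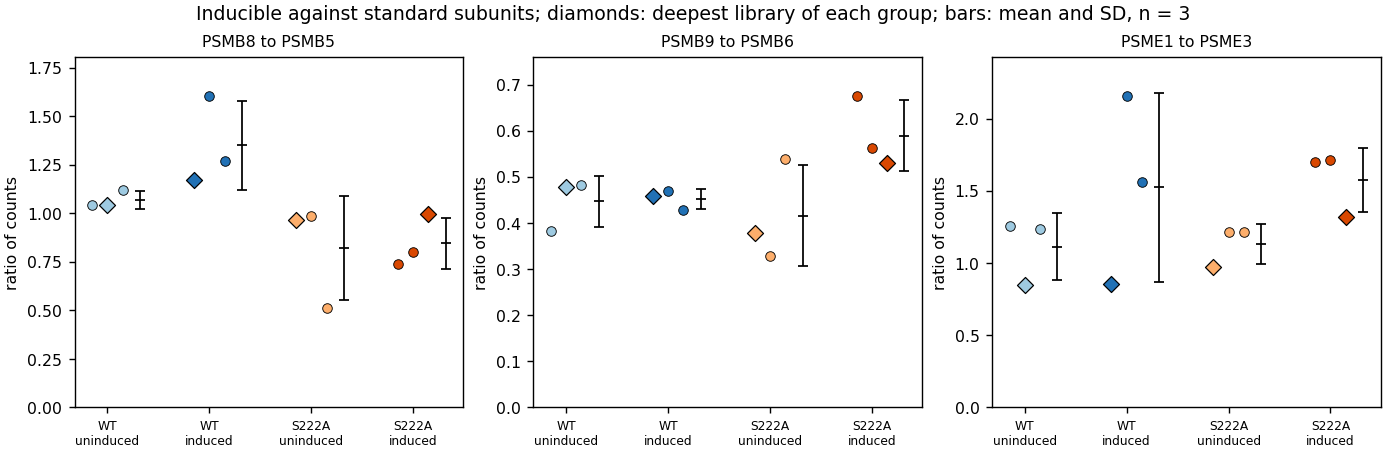
Ratio of counts (vertical axes) of PSMB8 to PSMB5, PSMB9 to PSMB6 and PSME1 to PSME3 in each library of the 4 groups; diamonds are the deepest library of each group and bars the mean with SD of 3 libraries. PSMB8 to PSMB5 lies at 0.512 to 0.995 in the S222A and at 1.04 to 1.61 in the WT libraries.

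The ATPase ring of the 19S particle pulls substrates into the core. PSMC3 stood at 129.7, 78.6 and 120.1 CPM in WT uninduced, 104, 143 and 120.0 in WT induced, 138, 133 and 182 in S222A uninduced and 86.9, 102 and 106 in S222A induced cells. It was high in S222A uninduced cells, without overlap with the WT uninduced or the S222A induced ones, and the S222A induced level lay within the range of the WT libraries. The log2 fold change was -0.60 ± 0.21 SE, adjusted p = 0.123 on S222A induction, 0.46 ± 0.21 SE, adjusted p = 0.658 between the uninduced lines, and -0.76 ± 0.29 SE, adjusted p = 0.68 for the difference of induction effects (edgeR quasi-likelihood), so none of them was called. On WT induction it stood at 0.16 ± 0.21 SE.

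The CCAAT box of the PSMC3 promoter is shown for this member, on the minus strand at chr11:47426536-47426565 (RefSeq window, GRCh38.p14), upstream of the start and outside annotated exons.
PSMC3 CCAAT box: cgcgcgtgtcggCCAATagcggccccacct

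PSMC5, another ATPase of the ring, stood at 166, 191 and 167 CPM in WT uninduced, 189, 177 and 155 in WT induced, 184, 180.2 and 222.3 in S222A uninduced and 151, 136 and 151 in S222A induced cells. S222A induced libraries were below the other 9, and the log2 fold change of -0.42 ± 0.15 SE, adjusted p = 0.13 (edgeR) was not called. The remaining ATPases, PSMC1, PSMC2, PSMC4 and PSMC6, had log2 fold changes between -0.42 and -0.13 on S222A induction. PSMC1 may share reads with 13 rows of pseudogenes named after it, which held 288 counts against its own 2911, and 82.1% of its exon length overlaps NRDE2 on the other strand, so its values are uncertain.

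Of the other 19S genes, PSMD2, a large subunit that binds ubiquitin shuttle proteins, stood at 296, 316 and 308 CPM in WT uninduced, 309.6, 311 and 283 in WT induced, 357, 331 and 376 in S222A uninduced and 228, 245 and 295 in S222A induced cells. Like PSMC3 it was higher in S222A uninduced than in WT uninduced cells without overlap, and lower again in induced S222A cells. On S222A induction it was 1.38-fold lower (log2 -0.47 ± 0.14 SE, adjusted p = 0.0785, edgeR), and DESeq2 called it there (adjusted p = 0.0174). The difference of the induction effects was -0.44 ± 0.20 SE, adjusted p = 0.74. PSMD1, the other large scaffold of the particle, stood at 133, 140.4 and 173 CPM in WT uninduced, 127, 146 and 128 in WT induced, 156, 149 and 172 in S222A uninduced and 114, 122 and 130.0 in S222A induced cells. Its induced S222A libraries lay below the uninduced ones (log2 -0.38 ± 0.15 SE, adjusted p = 0.177).

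PSMD14, the deubiquitinase that removes ubiquitin chains from substrates, stood at 227, 183 and 223 CPM in WT uninduced, 159.9, 257 and 238 in WT induced, 190.2, 212 and 279 in S222A uninduced and 178, 163 and 126 in S222A induced cells. It did not overlap on S222A induction (log2 -0.54 ± 0.21 SE, adjusted p = 0.184, edgeR) and overlapped with WT induced 1 between the induced lines (log2 -0.48 ± 0.21 SE, adjusted p = 0.213). The lid subunits PSMD8 and PSMD12 did not overlap on S222A induction either, with log2 fold changes of -0.31 ± 0.16 SE and -0.37 ± 0.22 SE. PSMD4, a ubiquitin receptor, stood at -0.27 ± 0.23 SE and overlapped. The chaperones that build the ATPase ring, PSMD5, PSMD9 and PSMD10, had log2 fold changes of -0.03, 0.15 and 0.11.

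**Figure D4:**
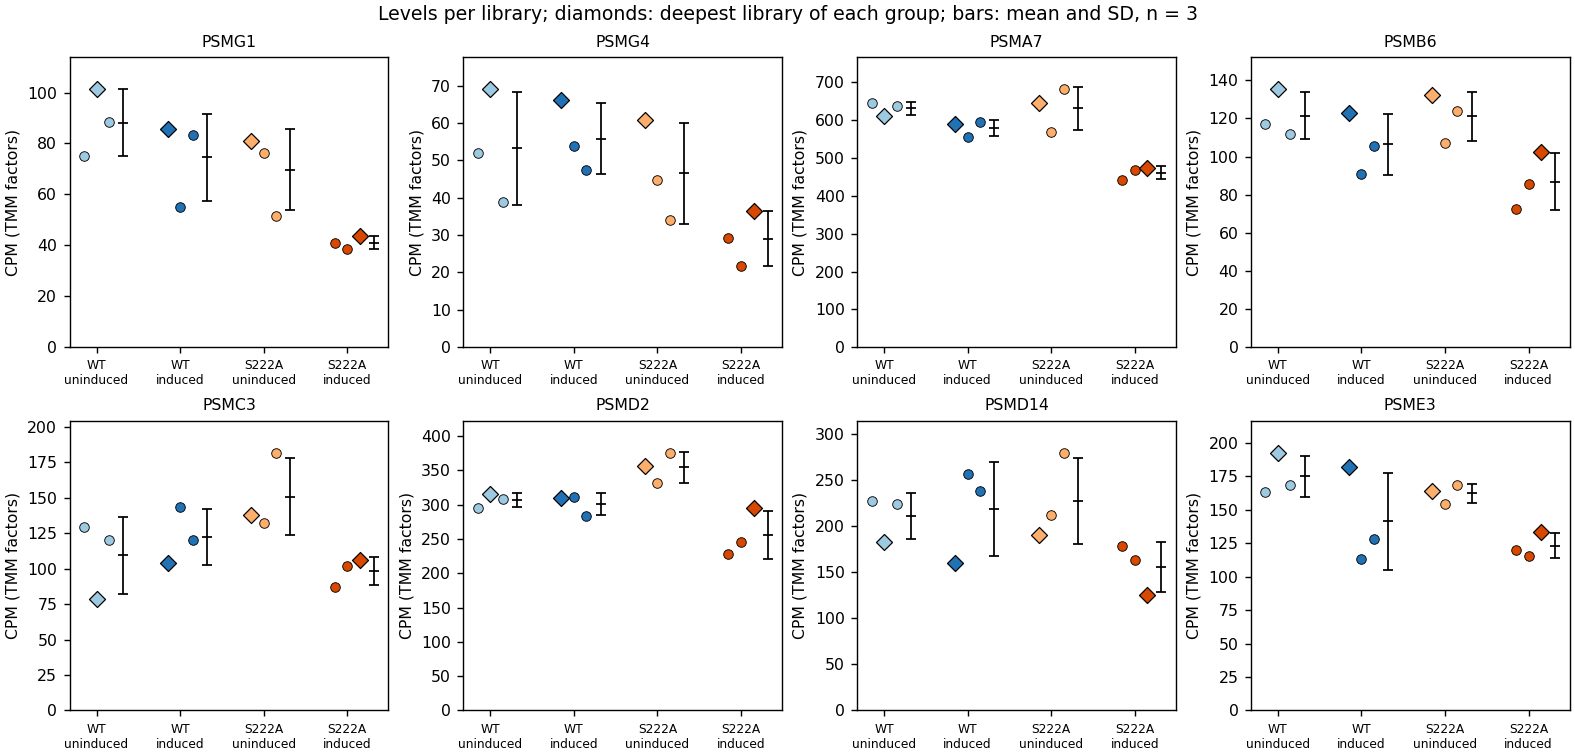
Levels in CPM (vertical axes, from 0) of PSMG1, PSMG4, PSMA7, PSMB6, PSMC3, PSMD2, PSMD14 and PSME3 in each library of the 4 groups; diamonds are the deepest library of each group and bars the mean with SD of 3 libraries. PSMG1 lies between 38.6 and 43.6 CPM in the S222A induced libraries and at 51.5 CPM or more in the others.

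PSME3 encodes the nuclear activator and PSME1 and PSME2 the interferon-inducible cytosolic one. PSME3 stood at 164, 193 and 169 CPM in WT uninduced, 182, 113 and 128 in WT induced, 164, 155 and 169 in S222A uninduced and 119.8, 116 and 134 in S222A induced cells. The S222A induced libraries were below the S222A uninduced ones and overlapped with the WT induced ones (log2 -0.40 ± 0.18 SE, adjusted p = 0.237 on S222A and -0.30 ± 0.18 SE on WT induction, edgeR). PSME1 stood at 206, 163 and 208 CPM in WT uninduced, 155, 244 and 200.3 in WT induced, 159.6, 188 and 205 in S222A uninduced and 203, 198 and 176 in S222A induced cells. It overlapped between all groups and had a log2 fold change of 0.07 ± 0.18 SE on S222A induction.

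PSME2 stood at 41.9, 67.8 and 45.8 CPM in WT uninduced, 64.7, 49.3 and 50.5 in WT induced, 65.5, 44.7 and 50.4 in S222A uninduced and 31.2, 38.1 and 55.1 in S222A induced cells. The deepest library was the highest in each group, and the log2 fold change was -0.37 ± 0.25 SE, adjusted p = 0.482. PSME1 to PSME3, as a ratio of counts, was 1.13 ± 0.139 in S222A uninduced and 1.58 ± 0.224 in S222A induced cells, and 1.11 ± 0.231 and 1.52 ± 0.654 in the WT line (SD, n = 3). In each group the deepest library had the lowest ratio, at 0.847 in WT uninduced, 0.852 in WT induced, 0.974 in S222A uninduced and 1.32 in S222A induced cells. PSME4, an activator linked to chromatin and DNA repair, had a log2 fold change of -0.29 ± 0.22 SE. PSMF1 stood at 38.9, 54.1 and 50.7 CPM in WT uninduced, 49.7, 30.3 and 44.5 in WT induced, 49.0, 51.3 and 49.3 in S222A uninduced and 35.0, 38.6 and 45.3 in S222A induced cells, without overlap on S222A induction (log2 -0.32 ± 0.20 SE, adjusted p = 0.416).

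On doxycycline in the WT line no member was called. The share called was 0 of 46 (0.00872% of all genes), and 0 passed an unadjusted p under 0.05 in either direction (against 0.488% of all genes lower and 1.21% higher). DESeq2 and limma-voom also called 0 (0.0349 and 0% of all genes). The median log2 fold change was -0.04 with 32 of 46 below 0 (48.8% of all genes), and the members ran from -0.30 (PSME3) to 0.62 (PSMA6). PSMA2 and PSMA7 were the 2 members without overlap, both lower (4.35%, against 2.98% of all genes), and 0 were higher (against 2.81%).

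Whether induction acted differently in the 2 lines was tested as the difference of the effects, S222A minus WT. No member was called (0.0784% of all genes; 0 with DESeq2 and limma-voom, which called 0.314 and 0.0872% of all genes), with 2 lower (PSMC3 and PSMD2, 4.35% against 3.04% of all genes) and 0 higher (against 3.63%) at an unadjusted p under 0.05. The median difference was -0.24 and 38 of 46 were below 0 (50.9% of all genes). This comparison and both inductions share libraries, so they are not independent. A difference between the lines in how the proteasome genes responded was thus not detectable gene by gene.

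Between the induced lines nearly all members were lower in S222A. The log2 difference was below 0 for 44 of 46 (95.7%, against 49.9% of all genes), PSMB5 and PSMB9 excepted, with a median of -0.25. PSMG1 was the 1 member called (2.17%, against 6.34% of all genes in either direction and 2.61% lower), 6 were lower at an unadjusted p under 0.05 (13%, against 9.96%) and 9 did not overlap (19.6%, against 12.9%). The 9 were PSMA1, PSMA2, PSMA3, PSMA7, PSMB7, PSMB8, PSMC5, PSMG1 and PSMG4. The share of members called was below that of all genes, while the share below 0 was above it. DESeq2 called 3 members lower (PSMA7, PSMG1 and PSMG4; 6.52%, against 4.13% of all genes) and limma-voom 2 (PSMG1 and PSMG4; 4.35%, against 3.6%).

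The uninduced lines were compared in the same way. Of 46 members 0 were called (0.392% of all genes; 0 with DESeq2 and limma-voom, which called 0.723 and 0.366%), 26 were below 0 (49.7% of all genes) and the median was -0.03. At an unadjusted p under 0.05 stood PSMB4 and PSMA2 as lower in S222A (log2 -0.43 ± 0.19 SE and -0.31 ± 0.14 SE) and PSMC3 as higher (0.46 ± 0.21 SE), where 3.3% of all genes were lower and 4.17% higher. PSMA2 and PSMA3 did not overlap in the lower direction (4.35%, against 6.1% of all genes) and PSMC3 and PSMD2 in the higher (4.35%, against 6.24%). Alpha ring genes had a median of -0.17 and 19S genes one of 0.06 in this comparison.

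Depth went with the level of many members. The deepest library was the highest of its group in all 4 groups for 17 of 46 members (37%, against 17.4% of all genes) and the lowest for 6 (13%, against 15.4%), namely PSMA6, PSMC2, PSMD12, PSMD14, PSMD6 and PSME1. Beside PSMG3, the largest ratios of deepest to other libraries among genes above 20 CPM were 1.75 for PSMD11 and 1.71 for PSMB3. PSMD3, a lid subunit, stood at 510.2, 861 and 367 CPM in WT uninduced, 714, 421 and 418 in WT induced, 747, 581 and 667 in S222A uninduced and 421, 357 and 632 in S222A induced cells, 1.62 times higher in the deepest libraries. Each group had a deepest library, so each comparison could be made between those and between the others, without depth being matched. The deepest S222A libraries had 8660836 counts uninduced and 13134791 induced. The others had 2365154 and 930960 counts uninduced and 2848123 and 4489036 induced. On S222A induction 39 of 46 members were below 0 between the deepest libraries (1 a group, median -0.25), against 49.5% of all genes. Between the others (2 a group, median -0.36) it was 36 of 46, against 47.5% of all genes. Between the induced lines the counts were 39 (median -0.26) and 40 (-0.26), against 48.3 and 48.5% of all genes. On WT induction they were 34 (-0.08) and 28 (-0.06), against 48.9 and 50.3% of all genes. PSMG1 differed by -0.89 and -0.65 on S222A induction in the deepest and the other libraries, PSMG4 by -0.74 and -0.63, PSMA7 by -0.44 and -0.45, and PSMC3 by -0.38 and -0.72.

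**Figure D5:**
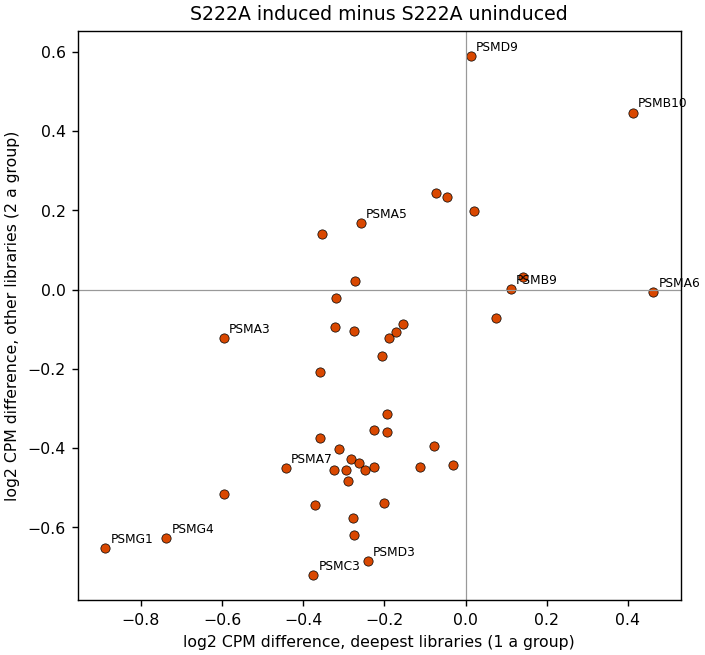
Log2 difference in CPM of each of the 46 tested proteasome genes, S222A induced minus S222A uninduced, between the deepest libraries (1 a group, horizontal axis) and between the others (2 a group, vertical axis). Most genes lie in the lower left, with 39 below 0 on the horizontal and 36 below 0 on the vertical axis. Of all genes tested, 49.5 and 47.5% were below 0 in the same order.

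With the term for the deepest libraries, the 14 members called on S222A induction were PSMA7, PSMB3, PSMB6, PSMB7, PSMC3, PSMC5, PSMD1, PSMD2, PSMD3, PSMD12, PSMD14, PSME3, PSMG1 and PSMG4. Both rings, the ATPases, the lid, an activator and the chaperones are among them. Between the induced lines the same term called 8 members, PSMA3, PSMA7, PSMB3, PSMB8, PSMD14, PSME2, PSMG1 and PSMG4, all lower (17.4%, where 10% of all genes were called lower). The adjusted p of PSMG1 was then 0.000941 on S222A induction and 0.000203 between the induced lines. Leaving out the deepest libraries instead called PSMC3, PSMD2 and PSMD3 lower on S222A induction (6.67% of the 45 members left, against 2.31% of all genes). This left replicates 2 and 3 of S222A uninduced cells, and replicate 3 is the library that stood apart in MYC. It held 182, 376 and 667 CPM of these genes, where replicate 2 held 133, 331 and 581 CPM.

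PSMB3 and PSMD3, called on S222A induction with a term for depth and not without it by edgeR on all 12 libraries, have both motifs in 1 promoter and are shown for that reason, 5′ to 3′ from 250 to 11 bases before the start (RefSeq, GRCh38.p14, plus strand). PSMB3 lies at chr17:38752491-38752730 and PSMD3 at chr17:39980557-39980796, and capitals mark CCAAT, or ATTGG on the other strand, and TGACNNNGC; the last letters of PSMB3 are the start of a second CCAAT.
PSMB3 promoter: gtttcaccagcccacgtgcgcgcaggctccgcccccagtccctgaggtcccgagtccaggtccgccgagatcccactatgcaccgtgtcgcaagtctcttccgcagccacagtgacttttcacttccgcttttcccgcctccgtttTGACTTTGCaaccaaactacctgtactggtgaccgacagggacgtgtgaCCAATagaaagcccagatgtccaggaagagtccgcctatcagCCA
PSMD3 promoter: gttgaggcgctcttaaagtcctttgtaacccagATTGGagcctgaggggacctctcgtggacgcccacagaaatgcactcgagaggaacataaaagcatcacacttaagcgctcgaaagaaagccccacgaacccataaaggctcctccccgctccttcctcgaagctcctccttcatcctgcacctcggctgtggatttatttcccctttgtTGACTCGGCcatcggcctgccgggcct

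RefSeq windows matched 40 of the 46 tested members, and motifs were searched on both strands of the 300 bases; a gene with several windows counted where any of them held the motif. TGACNNNGC was in 15 of 40 members (37.5%), against 16.1% of 27305 genes with a window, and CCAAT in 19 (47.5%), against 39.7%. The 27305 genes were taken whether or not they were tested here, unlike the members. The 2 sets are thus not alike, and their shares were not tested against each other. CACGTG, the E-box core bound by MYC, was in 3 (7.5%, against 8.77%), and TGACGTCA, the cyclic AMP response element, and the MEF2 element were in 0 of 40 (2.25 and 2.29% of all genes). CCAAT and TGACNNNGC can lie in the same window, as in PSMA4, PSMB3, PSMB9, PSMD3 and PSMG1. A match describes letters and no binding was measured here.

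Genes that work with the proteasome were taken as lists. Of 14 partners of the particle, such as receptors, chaperones and deubiquitinases outside the PSM symbols, 11 were below 0 on S222A induction with a median of -0.05, and UCHL5 was the 1 called (4.45% of all genes were called there). UCHL5, a deubiquitinase that docks on the 19S particle, stood at 405, 400.2 and 493 CPM in S222A uninduced and 257, 295 and 269.6 CPM in S222A induced cells. It fell 1.58-fold without overlap (log2 -0.66 ± 0.16 SE, adjusted p = 0.0339, edgeR) and was also lower between the induced lines (log2 -0.67 ± 0.16 SE, adjusted p = 0.0255). On S222A induction the call was lost without any 1 of the 6 libraries, with adjusted p from 0.0682 to 0.143. In the comparison of the induced lines it was lost without WT induced 2 or 3 or any 1 of the S222A induced libraries (0.0618 to 0.115). POMP, which matures the core, and ADRM1, which anchors UCHL5, had log2 fold changes of -0.26 and -0.45 and were not called.

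The NRF1 list, of the factors that raise proteasome genes when the particle is inhibited and of their control, had 0 of 12 tested genes called in any comparison, with a median of 0.11 on S222A induction. NFE2L1, which encodes NRF1, stood at -0.03, and DDI2, the protease that releases it, at -0.49 (adjusted p = 0.272, edgeR). Ubiquitin and E1 genes (11 tested, median -0.04) and p97 with the shuttle proteins (13 tested, -0.07) had 0 called in all 5 comparisons. The median of the proteasome genes was below that of each of these lists on S222A induction, and the difference was not tested.

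Of 16 tested genes of class I antigen processing, which receives the peptides of the immunoproteasome, 2 rose and 1 fell on S222A induction, where 4.45% of all genes were called in either direction and 1.66% lower. IRF1, an interferon-responsive factor, rose from 16.4 ± 1.93 to 33.6 ± 3.04 CPM (SD, n = 3; log2 1.07 ± 0.20 SE, adjusted p = 0.00826, edgeR), and HLA-E from 193 ± 16.1 to 333 ± 13.9 CPM (log2 0.79 ± 0.15 SE, adjusted p = 0.00939). NLRC5, the transactivator of class I genes, fell from 53.6 ± 7.03 to 25.8 ± 3.02 CPM (log2 -1.04 ± 0.20 SE, adjusted p = 0.00973). The IRF1 call was lost without S222A uninduced 1 (adjusted p = 0.0553) and the NLRC5 call without S222A induced 2 (0.0617). That of HLA-E held without each library. In S222A uninduced cells HLA-E, at 175 to 207 CPM, lay below every WT library (231 to 293 CPM). Between the induced lines IRF1 (log2 1.13, adjusted p = 0.00506) and NLRC5 (log2 -0.86, adjusted p = 0.0215) were called by edgeR. HLA-E was not (log2 0.31, adjusted p = 0.247). NLRC5 lost that call without WT induced 1 or any 1 of the S222A induced libraries (0.0583 to 0.0945). The immunoproteasome genes PSMB8, PSMB9 and PSMB10 and PSME1 and PSME2 were called in neither direction, with a median of 0.03 over these 5. On WT induction, in the difference of effects and between the uninduced lines, 0 genes of this list or of the 4 lists above were called.

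Counting sets limits on some members. Lengths per gene come from GENCODE exons on GRCh38, not from the authors' hg19 annotation, and per kb of exon PSMA7 stood at 403 and PSMB1 at 438 CPM in WT uninduced cells, while PSMA6 and PSMB10, as core subunits of the same rings, stood at 2.75 and 2.76. Of the exon length of PSMA6, 63.9% overlaps another gene on the same strand, and of PSMB10 45.3%, PSMD9 43.8%, PSMA2 52.5% and PSMA1 35.7%. Reads shared between overlapping genes may be left uncounted, so the levels of these members, PSMA6 and PSMB10 above all, are uncertain. PSMB8 and PSMB9 overlap PSMB8-AS1, and the strand setting is not given in the sources used here. The 30 pseudogene rows named after members held 355 counts, 0.0953% of the members' 372553. PSMA8, a testis form of the alpha ring, had 0 counts in all libraries and PSMB11, a thymus form of the beta ring, 1 count in S222A induced 3.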

How the data were processed

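RNA of 12 libraries was measured by sequencing, and the table the authors deposited holds unnormalized whole-number counts by gene symbol. The submitters' processing notes name STAR 2.4, HTSeq 0.6.1, DESeq2 and build hg19 without their roles. The sources used here do not give the annotation release or the strand setting. Columns were matched to samples by name; the S222A columns carry no S222A in their names, and the match rests on the sample descriptions. Pairs of libraries within a group differed by more than sampling noise.

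Genes were kept by edgeR's filterByExpr (minimum count 10), which left 11474. All 12 libraries entered 1 model with a mean per group, TMM factors and robust quasi-likelihood F tests (edgeR 4.0.16, R 4.3.3), with 5 contrasts. Benjamini-Hochberg adjustment ran over all 11474 genes, and called means an adjusted p under 0.05. SE was taken as |log2 fold change| over the root of F. The biological coefficient of variation was 24.8%. The steps were tested on simulated counts. The level that 3 counts correspond to covers counting error only, while the SE also includes the spread between the libraries of a group.

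Alternatives were DESeq2 1.42.0, upper quartile factors, no filter, limma-voom (limma 3.58.1), a replicate block, a term for the deepest library of each group, fits without those libraries and without each library in turn. All members could be named; values per library were given for called members, for the 2 of each class with the smallest p on S222A induction, for inducible subunits and their standard partners, and for others of the set that show a pattern; of other lists, up to 3 called genes each. The alternatives were extended to the called genes of other lists after seeing the data. Members, lists and alternatives were chosen with earlier results of these data known.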

Additional observations from a re-analysis of the deposited data

How the results depend on the processing

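On S222A induction the count of proteasome genes called was 0, and it was 3 with DESeq2, 1 with upper quartile factors, 1 without the filter on low counts, 2 with limma-voom, 14 with a term for the deepest library of each group and 3 without those libraries, all lower. The share of all genes called lower was 1.66% and, in that order, 3.16, 1.39, 0.502, 2.34, 9.12 and 2.31%. Leaving out each library in turn gave 0 to 1. Between the induced lines it was 1, and 3, 1, 2, 2, 8 and 2 under the same alternatives (2.61% of all genes called lower, and 4.13, 2.54, 0.824, 3.6, 10 and 3.59%), with 0 to 1 when each library was left out. On WT induction, in the difference of effects and between the uninduced lines it was 0 under every alternative run. The median log2 fold change on S222A induction lay between -0.39 and -0.19 over all alternatives, and no median changed sign. In their deviations from the group mean, same-numbered libraries of different groups correlated at -0.53 to 0.64 (18 pairs) and others at -0.62 to 0.76 (36 pairs). By mean correlation, 0 of 12 libraries were closest to their own number. The deepest libraries, which do not all carry the same number, correlated with each other at 0.61 to 0.76 (6 pairs). The deepest libraries thus weigh on these correlations, which cannot show whether replicate numbers pair the libraries. Whether depth itself or something else that these libraries share lay behind this was not tested. With the replicate block 0 members were called on S222A induction, on WT induction, in the difference of effects, between the induced and between the uninduced lines (0.566 and 1.03% of all genes lower on S222A induction and between the induced lines), and PSMG1 had an adjusted p of 0.122 on S222A induction and 0.0694 between the induced lines. Of the other genes named, UCHL5 (adjusted p = 0.11) lost its call on S222A induction without the filter, UCHL5 (0.0826) and MPO (0.108) with the block, and MPO (0.224) and IRF1 (0.0697) without the deepest libraries; between the induced lines UCHL5 lost it without the filter (0.0637) and with the block (0.0626), and NLRC5 with the block (0.0619) and without the deepest libraries (0.0859). The cause of these shifts was not tested. With 3 libraries a group of unequal depth, small changes of single members were not detectable.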
